A study of Mus musculus with 3 samples.

Results

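The chemokine Cxcl12 and its receptors Cxcr4 and Ackr3 were followed across the cells of mouse gliomas driven by human EGFR. These 3 genes, taken by name whatever their values, were 3 of 50262 genes counted. Cxcl12 was counted mainly in vessel-associated cells, with 1467 of the 2526 transcripts of the non-leukocyte fraction in 346 endothelial-like cells. Cxcr4 was enriched among leukocytes, highest in neutrophil-like, NK cell-like, T cell-like and macrophage or monocyte-like cells and scarce in microglia-like cells. It was also counted in some ependymal-like and endothelial-like cells. Ackr3 was highest in mural-like and endothelial-like cells, with lower levels in ependymal-like, astrocyte-like, fibroblast-like and glioma or OPC-like cells (OPC, oligodendrocyte progenitor cell).

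All tumors arose in mice that carried a conditional human EGFR transgene (wild-type receptor), Cdkn2a-/- and a conditional luciferase reporter, among other alleles, on a mixed genetic background. A Cre lentivirus, injected stereotactically into the striatum, started the tumors, so that the recombined cells are those the virus infected. Mice were adult at injection. The study's methods give age ranges for the mice of all experiments, which are not broken down by tumor sample. Brains without the cerebellum were dissociated and sorted as viable CD45+ cells (leukocytes) or CD45- cells (all others), at 3 stages, early, medium and late (labelled large). Single-cell RNA was captured by inDrop, which tags each captured molecule with a unique molecular identifier (UMI). The 24 libraries, 4 for each stage and sort over 3 sequencing runs, were read as coming from 1 tumor sample a stage, because the library names of a stage share 1 tumor number. The study's methods describe several early and late samples, the early ones pooled from mice, so that n = 3 and the block by tumor sample rest on that reading. Normal brain was not analysed here.

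CXCL12 binds cell-surface glycans and signals through CXCR4, a receptor coupled to inhibitory G proteins that guides leukocytes and keeps blood precursors in the bone marrow. ACKR3 binds CXCL12 and CXCL11 but signals through arrestins and removes ligand from the surroundings, so that it shapes the gradient that CXCR4-bearing cells read. In brain vessels, endothelial cells line the lumen, mural cells (pericytes and smooth muscle) wrap them, and fibroblasts occupy the meninges and the larger perivascular spaces.

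On GRCm38, Cxcl12 (ENSMUSG00000061353) lies on chromosome 6 from 117168535 to 117181367 on the plus strand. Cxcr4 (ENSMUSG00000045382) lies on chromosome 1 from 128588199 to 128592293 on the minus strand, and Ackr3 (ENSMUSG00000044337) on chromosome 1 from 90203980 to 90216751 on the plus strand. The 250 bases before each RefSeq start (GRCm38.p6) are shown because the genes were expressed in such different cells. Capitals mark the TATA box letters TATAAA and the core letters of a hypoxia response element, which were ACGTG and, as its other form, GCGTG, all of them searched on both strands.
Cxcl12, chr6:117168285-117168534, plus strand: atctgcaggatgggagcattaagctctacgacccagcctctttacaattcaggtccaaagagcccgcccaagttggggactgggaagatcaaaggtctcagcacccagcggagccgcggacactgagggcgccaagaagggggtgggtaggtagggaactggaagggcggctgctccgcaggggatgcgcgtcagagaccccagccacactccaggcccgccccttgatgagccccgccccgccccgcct
Cxcr4, chr1:128592300-128592549, minus strand: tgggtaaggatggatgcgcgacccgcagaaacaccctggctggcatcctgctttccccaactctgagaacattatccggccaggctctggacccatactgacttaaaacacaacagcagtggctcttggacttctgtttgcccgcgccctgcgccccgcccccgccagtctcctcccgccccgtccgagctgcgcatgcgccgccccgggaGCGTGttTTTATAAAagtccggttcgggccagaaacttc
Ackr3, chr1:90203730-90203979, plus strand: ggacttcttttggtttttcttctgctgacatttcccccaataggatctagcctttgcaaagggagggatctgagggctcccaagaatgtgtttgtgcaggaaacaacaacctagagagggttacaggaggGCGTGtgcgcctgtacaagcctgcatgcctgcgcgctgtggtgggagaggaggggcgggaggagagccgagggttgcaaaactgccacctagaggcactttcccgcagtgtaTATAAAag
The Cxcl12 window held neither motif and was 64.4% G or C. The Cxcr4 window (61.2% G or C) held TATAAA on both strands in overlapping positions and 1 GCGTG, and the Ackr3 window (54.0% G or C) held 1 TATAAA and 1 GCGTG on the printed strand. The letters TATAAA were found in 12.4% of 32851 promoters of the same length and either form of the hypoxia letters in 38.6%. A match is a description of the letters and not of a bound site.

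Of 20811 deposited cells, 17781 were kept, with 5381839 to 10808099 UMIs for each sort and stage. Of 18335 distinct cell barcodes, 2117 occurred in at least 2 libraries. Counted within each run, 740 pairs of run and barcode occurred in at least 2 libraries. Clusters were named only from marker lists, which gave 21 possible classes, and 7 of 54 clusters stayed unnamed. The sort was checked on Ptprc, which encodes CD45, at 10.2 UMIs per 1000000 UMIs counted (CPM) in CD45- cells and 239 CPM in CD45+ cells on average over the 3 tumor samples. Human EGFR stood at 7.28, 706 and 1220 CPM in early, medium and late CD45- cells, so that few transgene-bearing cells were sampled at the early stage. Since each stage was read as 1 tumor sample, no stage difference could be tested, and the 95% Poisson intervals given with them cover counting error only.

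Cxcl12 and Ackr3 were enriched among CD45- cells and Cxcr4 among CD45+ cells in each of the 3 tumor samples. Cxcl12 stood at 97.9, 176 and 55.0 CPM in early, medium and late CD45- cells (793, 1151 and 582 UMIs), and at 6.11, 6.37 and 10.0 CPM in the CD45+ cells. Every CD45- value was above every CD45+ value. The log2 difference, CD45+ minus CD45-, was -3.41 ± 0.44 (SE, adjusted p = 0.00106, edgeR quasi-likelihood test with the tumor sample as a block, n = 3 in each sort). Cxcr4 stood at 7.78, 7.47 and 8.88 CPM in CD45- cells and at 50.3, 132 and 145 CPM in CD45+ cells, again without overlap. Its log2 difference was 4.00 ± 0.36 (SE, adjusted p = 0.000271, edgeR). Over both sorts together Ackr3 was the scarcest of the 3, although Cxcr4 had fewer UMIs in CD45- cells (206 against 398). Ackr3 stood at 21.6, 23.2 and 6.71 CPM in CD45- cells (175, 152 and 71 UMIs) and 1.94, 1.13 and 2.23 CPM in CD45+ cells. Its log2 difference was -2.85 ± 0.52 (SE, adjusted p = 0.00435, edgeR), and the call was lost in run 2 alone (-2.35, adjusted p = 0.0945, edgeR). Of 18433 genes tested, 20.4% were called higher and 25.7% lower in CD45+ cells, so that a call alone is common in this comparison. With library sizes alone in place of TMM factors, the median of all genes moved from -0.04 to -0.40 and the split from 3759 higher and 4744 lower to 2589 and 6559, while the members stood at -3.77, 3.63 and -3.21. In such sums over a sort, fewer cells of a type and less RNA per cell cannot be told apart.

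**Figure D1:**
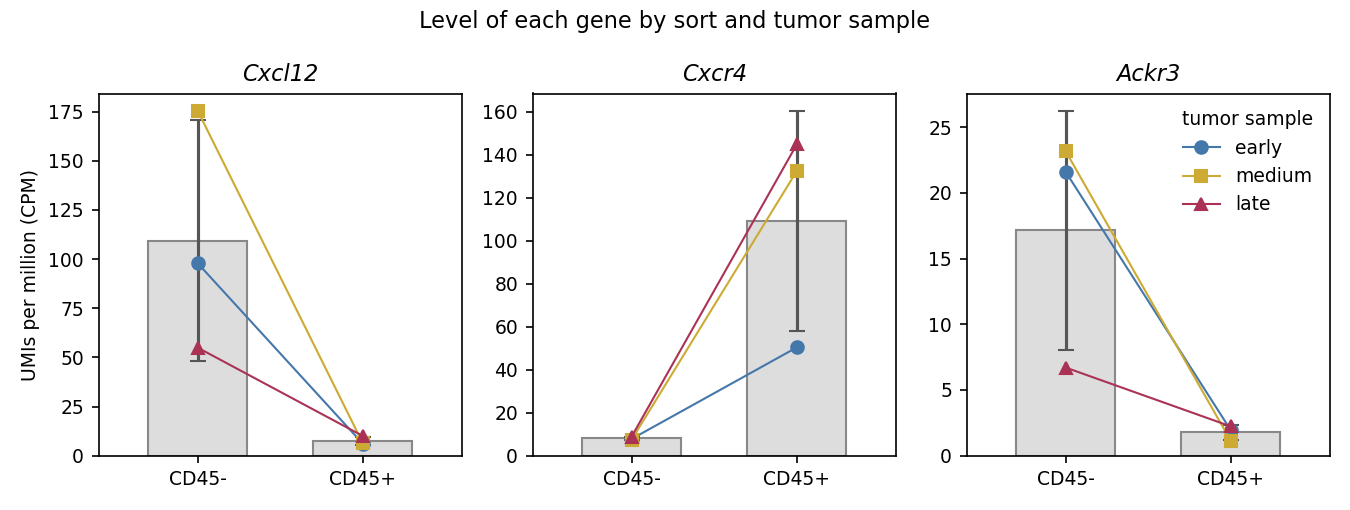
Cxcl12, Cxcr4 and Ackr3 in CPM (linear axis from 0) in the CD45- and CD45+ sorts. Bars show the mean and error bars the SD over 3 tumor samples, and points joined by lines are the early, medium and late samples. Cxcl12 averaged 109.5 CPM in CD45- and 7.50 in CD45+ cells, Cxcr4 8.04 and 109.1, and Ackr3 17.2 and 1.77.

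Endothelial-like cells held more Cxcl12 per transcript counted than any other class. Their levels were 2365, 3018 and 2038 CPM in early, medium and late tumor samples (152, 126 and 68 cells), a mean of 2474 ± 499 (SD, n = 3). Fibroblast-like cells followed at 390, 1381 and 959 CPM, and mural-like cells at 880, 483 and 291 CPM. The endothelial values lay above all fibroblast values, whereas the fibroblast and mural values overlapped. With classes assigned cell by cell and without clusters, the mean over tumor samples moved from 910.2 to 397 CPM in fibroblast-like and from 551 to 377 CPM in mural-like cells. All other classes of neural and leukocyte origin stood far lower. Neuron-like cells averaged 12.2 CPM, choroid plexus-like cells 10.2, glioma or OPC-like cells 4.14, oligodendrocyte-like cells 1.99 and astrocyte-like cells 1.76.

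Endothelial-like cells were higher in Cxcl12 than the 6 other CD45- classes they were tested against, while neuron-like and microglia-like CD45- cells were not tested. The log2 difference was 1.40 ± 0.41 (SE, adjusted p = 0.0132, edgeR) from fibroblast-like cells, where 7.04% of 10798 genes were called higher in endothelium. It was 2.35 ± 0.43 (adjusted p = 0.000296, edgeR) from mural-like cells, where 3.14% of genes were called higher. It reached 10.05 ± 0.64 (adjusted p = 2.85e-15, edgeR) from glioma or OPC-like cells, with 13.6% of genes called higher. The differences from oligodendrocyte-like and choroid plexus-like cells were 9.92 ± 0.62 and 7.54 ± 0.58 (adjusted p = 1.03e-15 and 4.58e-13, edgeR), with 16.2% and 15.5% of genes called higher. Only 1 Cxcl12 UMI was counted in astrocyte-like cells, so that the endothelial level was 991 times theirs with a counting interval of 178 to 39150 (10.7% of genes were called higher). These 6 contrasts share the same endothelial sums. The call against fibroblast-like cells was lost with DESeq2 (adjusted p = 0.124), at clustering resolution 2 (adjusted p = 0.0736, edgeR) without the early tumor sample (1.02, adjusted p = 0.0544, edgeR) and in run 2 alone (1.35, adjusted p = 0.112, edgeR). The call against mural-like cells was lost in run 2 alone (1.85, adjusted p = 0.0591, edgeR). Without TMM factors, the split of higher and lower calls moved from 1471 and 1652 to 1209 and 2127 for glioma or OPC-like cells, from 1750 and 1847 to 2229 and 1399 for oligodendrocyte-like cells, from 1674 and 1835 to 2191 and 1323 for choroid plexus-like cells and from 339 and 405 to 226 and 468 for mural-like cells, with Cxcl12 higher in endothelium in each.

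**Figure D2:**
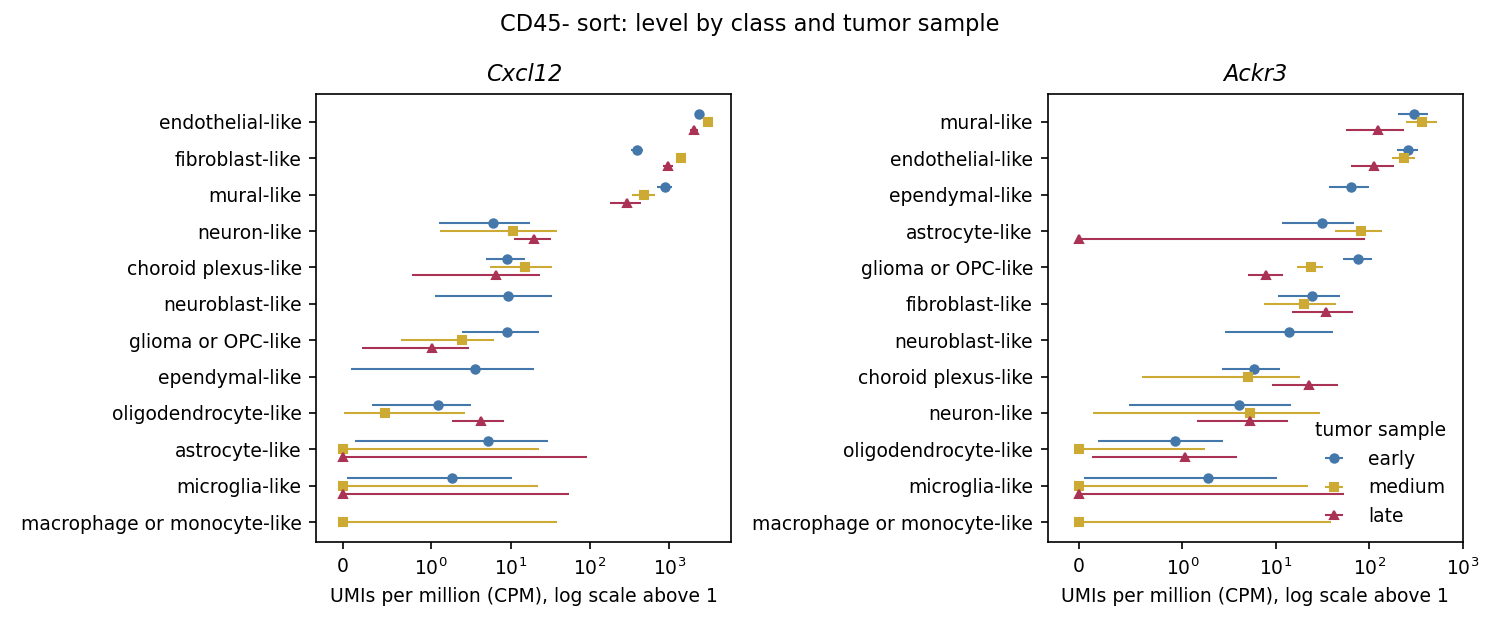
Cxcl12 and Ackr3 by class of CD45- cells, in CPM on an axis that is logarithmic above 1, for the early, medium and late tumor samples (sums of at least 20 cells). Bars across the points are 95% Poisson intervals. Cxcl12 separates endothelial-like, fibroblast-like and mural-like cells from all others, and Ackr3 is highest in mural-like and endothelial-like cells.

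The same contrast was visible cell by cell. At least 1 Cxcl12 UMI was counted in 63.0% of 346 endothelial-like cells at a median of 1426 UMIs a cell. The share was 48.4% of 219 fibroblast-like cells (median 3089 UMIs) and 29.3% of 123 mural-like cells (median 1581 UMIs). In microglia-like CD45+ cells, which should lack the transcript, it was 0.0338% of 5912 cells (median 1906 UMIs). Thinned to 1000 UMIs a cell, the shares were 59.3%, 32.4%, 24.6% and 0.0347%. Glioma or OPC-like cells, at 0.739% of 1083 cells, and oligodendrocyte-like cells, at 0.435% of 2529 cells, stood at 0.0969% and 0.121% after thinning. The microglia-like cells of their own sort, CD45-, had a Cxcl12 UMI in 1 of 347 cells (0.288%) and in none after thinning, which allows up to 1.11% by the exact 95% interval. The shares of both neural classes were thus not above the background of that sort. The CD45+ sort held 182 Cxcl12 UMIs, of which 77 were in 20 endothelial-like cells, 59 in 23 fibroblast-like cells and 2 in the microglia-like cells. The few endothelial-like and fibroblast-like cells of the CD45+ gate stood at 2199 and 974 CPM.

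The classes differed in how cleanly they stood apart. The 9 endothelial marker genes summed to 19040 CPM in endothelial-like cells, 3963 CPM in mural-like cells (2993 to 5067 by tumor sample, all 9 detected) and 631 CPM in fibroblast-like cells (559 to 759, 7 detected). Endothelial-like cells themselves held 10330 CPM of the erythroid markers and 2854 CPM of the macrophage or monocyte markers (6 of 11 detected). The neutrophil and T cell markers summed to 10.4 and 5.18 CPM there. Mural-like cells without any endothelial marker UMI (36 of 123 cells) held Cxcl12 at 194 CPM (13 UMIs), against 582 CPM over the whole class. By tumor sample, these cells stood at 221, 0 and 415 CPM. Fibroblast-like cells without such a UMI (64 of 219) held 1354 CPM, against 889 CPM over the class. By tumor sample they stood at 270, 2789 and 721 CPM against 390, 1381 and 959 CPM, and so higher than their class in the medium sample only. Endothelial-like cells without a mural marker UMI (272 of 346) held 2458 CPM. The part of endothelial transcripts in the mural Cxcl12 level was not tested further.

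Vessel-associated classes supplied most Cxcl12 although they were rare. Endothelial-like cells made up 5.25% of CD45- cells and 58.1% of the Cxcl12 UMIs of that sort. Fibroblast-like cells made up 3.32% of cells and 30.1% of UMIs (761), and mural-like cells 1.86% of cells and 5.70% of UMIs (144). The endothelial share of Cxcl12 was 69.4%, 56.1% and 46.6% from early to late, and the fibroblast share 16.0%, 35.5% and 38.7%. Endothelial-like cells were 5.58%, 7.86% and 3.00% of the CD45- cells at these stages, shares that the sort and the cell yield can set.

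By stage, the sum over all CD45- cells was 1.79 times (1.64 to 1.96) as high in the medium as in the early sample and 0.561 times (0.504 to 0.626) as high in the late as in the early one. Within runs 1, 2 and 3, however, the early, medium and late values were 29.0, 156 and 72.2 CPM, then 138, 198 and 25.3, then 92.5, 134 and 43.5. The late value was thus above the early one in run 1 and below it in the other runs. Within endothelial-like cells the late to early ratio was 0.862 (0.743 to 0.999) and became 1.09 as a mean of per-cell shares, so that its direction depended on the summary. Fibroblast-like cells stood 3.54 times (2.89 to 4.35) as high in the medium as in the early sample, at 1567 against 569 CPM within run 2. Their late to early ratio was 2.46 (1.97 to 3.08), and 1.45 without a late library of run 1. In mural-like cells the late to early ratio was 0.331 (0.195 to 0.538) and the medium to early ratio 0.549. Leaving out the early library of run 2 gave 0.539 and 0.895, and leaving out a medium library of run 2 gave a medium to early ratio of 0.295.

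Ackr3, the scavenging receptor, was highest in mural-like and endothelial-like cells. Mural-like cells stood at 300, 368 and 125 CPM in early, medium and late tumor samples (29, 29 and 9 UMIs). Endothelial-like cells stood at 262, 234 and 113 CPM (61, 50 and 15 UMIs), overlapping with the mural values. The log2 difference, endothelial minus mural, was -0.15 ± 0.52 (SE, adjusted p = 0.948, edgeR), where 6.89% of genes were called in either direction, and the ratio of the pooled counts was 0.803 (0.593 to 1.10), so that an endothelial level from 0.593 to 1.10 times the mural one is compatible with the counting error. Mural-like cells without an endothelial marker UMI held Ackr3 at 209 CPM (14 UMIs in 36 cells, at 36.8, 567 and 0 CPM by tumor sample), against 271 CPM over the class. Endothelial-like cells without a mural marker UMI held 232 CPM. At least 1 Ackr3 UMI was counted in 21.95% of mural-like and 15.9% of endothelial-like cells (16.7% and 12.4% after thinning), against 0.203% of the microglia-like CD45+ cells (0.139% after thinning).

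Endothelial-like cells exceeded 5 of the same 6 CD45- classes in Ackr3. The log2 difference was 2.84 ± 0.60 (SE, adjusted p = 0.000501, edgeR) from fibroblast-like cells, which stood at 24.6, 20.3 and 34.1 CPM. It was 3.03 ± 0.53 (adjusted p = 1.74e-05, edgeR) from glioma or OPC-like cells and 7.62 ± 0.72 (adjusted p = 2.41e-11, edgeR) from oligodendrocyte-like cells. In run 2 alone these calls were lost against fibroblast-like (2.94, adjusted p = 0.0666, edgeR) and glioma or OPC-like cells (2.11, adjusted p = 0.101, edgeR). From choroid plexus-like cells the difference was 4.13 ± 0.65 (adjusted p = 3.28e-06, edgeR). From astrocyte-like cells, which stood at 31.6, 80.9 and 0 CPM (6, 13 and 0 UMIs, where a count of 0 allows up to 73.7 CPM), it was 2.17 ± 0.63 (adjusted p = 0.00913, edgeR), and the call was lost without the early tumor sample (1.62, adjusted p = 0.137, edgeR) and in run 2 alone (1.11, adjusted p = 0.460, edgeR). Ependymal-like cells, with at least 20 cells in the early sample only, held Ackr3 at 71.2 CPM over all samples (29 UMIs in 123 cells). Of 346 endothelial-like cells, 218 had a Cxcl12 UMI, 55 an Ackr3 UMI and 27 both.

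Within the endothelium, 1 small cluster stood apart in both genes. It held 25 CD45- cells led by Gpihbp1 and was described after its values were seen, although the members and the listed vessel genes had been left out of the clustering. Ackr3 stood at 579 CPM there (388 to 831, 29 UMIs) against 183 CPM (149 to 223, 97 UMIs) in the other 321 endothelial-like cells. Cxcl12 ran the other way, at 659 CPM (453 to 925, 33 UMIs) against 2708 CPM (2570 to 2852, 1434 UMIs). The genes of the tip cell list summed to 9659 CPM in the small cluster and 1928 CPM in the other, and those of the capillary list to 2994 and 7005 CPM. The members were uneven. Kdr (3652 CPM), Plvap, Cd34 (1417 CPM) and Esm1 (1138 CPM) led the tip cell sum, with Apln in 1, Angpt2 in 2 and Pgf in 0 of the 25 cells. Of the capillary genes, Rgcc ran the other way, at 1477 against 240 CPM, and the rest were lower in the small cluster. Plvap, which forms the diaphragms of fenestrated vessels, stood at 2375 CPM in the small cluster and at 0 in the other. The venous list summed to 39.9 and 829 CPM and the arterial list to 479 and 300 CPM.

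Ackr3 in the glioma or OPC-like class was higher in cells without a transgene UMI. This class held 96 of the 398 Ackr3 UMIs of CD45- cells (24.1%), at 76.0, 23.7 and 7.91 CPM in early, medium and late samples (169, 305 and 609 cells). The late to early ratio was 0.104 (0.0585 to 0.182), and 0.172, 0.110 and 0.0814 within runs 1, 2 and 3. The astrocyte marker genes summed to 1080, 471 and 299 CPM in this class from early to late. Cells without a UMI of those genes held Ackr3 at 29.8, 31.9 and 4.86 CPM (3, 20 and 6 UMIs). Cells without an endothelial marker UMI held 75.9, 23.5 and 7.58 CPM. The part of astrocyte transcripts in the class level was not tested. The class was a changing mixture, since human EGFR was counted in 0 of 169 early, 190 of 305 medium and 456 of 609 late cells. Cells with human EGFR held Ackr3 at 0.234 times (0.118 to 0.461) the level of cells without it in the medium sample (18 and 21 UMIs) and at 0.168 times (0.0680 to 0.428) in the late one (13 and 10 UMIs). The values without the transgene were 76.0, 59.5 and 30.1 CPM from early to late, and those with it 13.9 and 5.05 CPM in the medium and late samples. Split by cluster, the C1ql2-led cluster, in which 5 of 261 cells carried human EGFR, stood at 97.0, 61.2 and 62.0 CPM. The Gpr17-led cluster, in which 78.0% of cells carried it over all stages, stood at 9.34, 16.1 and 4.73 CPM. Its early value came from 1 UMI (0.237 to 52.1 CPM) in 43 cells, of which 0 carried human EGFR. Of the 126 early cells of the C1ql2-led cluster, 0 carried it either, so that the clusters differed there without a transgene UMI. The order of the clusters was the same in all 3 tumor samples. A cell without a human EGFR UMI is not shown to lack the transgene, since detection depends on depth.

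Over all Ackr3, the CD45- sum was 1.07 times (0.857 to 1.34) as high in the medium as in the early sample and 0.310 times (0.232 to 0.411) as high in the late as in the early one. The late sample was the lowest in each run, at 18.2, 30.8 and 7.85 CPM from early to late in run 1, 15.9, 23.6 and 3.89 in run 2, and 27.9, 16.4 and 6.95 in run 3. In endothelial-like cells the late to early ratio was 0.430 (0.227 to 0.766) and in mural-like cells 0.416 (0.173 to 0.902). The mural ratio became 0.176 when the early library of run 2 was left out and 0.670 when an early library of run 3 was left out, with 9 UMIs behind the late value. The CD45+ sort held 44 Ackr3 UMIs, 19 of them in microglia-like cells at 1.55 CPM. No Ackr3 UMI was counted in 812 T cell-like cells, which allows up to 1.65 CPM.

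A human EGFR UMI was counted in 1300 CD45- cells (7 early, 326 medium and 967 late), at a median of 5830 UMIs a cell. Not all of them need be recombined cells, since such a UMI was also counted in 4 of 34 late microglia-like, 2 of 68 late endothelial-like and 12 of 660 late oligodendrocyte-like cells. In the medium and late cells with a human EGFR UMI, Cxcl12 stood at 20.5 (15.1 to 27.3) and 6.58 CPM (4.77 to 8.87), Cxcr4 at 3.49 and 6.43 CPM and Ackr3 at 10.04 (6.36 to 15.1) and 1.99 CPM (1.06 to 3.404). Of the 1300 cells, 600 lay in unnamed clusters and held 69 of the 90 Cxcl12 UMIs, in 21 cells. Cxcl12 stood at 14.8, Cxcr4 at 8.35 and Ackr3 at 0.642 CPM (3 UMIs) in these 600. In the 646 of the glioma or OPC-like class, Cxcl12 stood at 1.29, Cxcr4 at 2.84 and Ackr3 at 8.01 CPM. In the 437 CD45- cells of that class without human EGFR, the values were 5.30, 12.4 and 57.4 CPM. The Cxcr4 ratio of cells with to cells without the transgene was 0.0341 (0.000769 to 0.254) in the medium sample, from 1 and 8 UMIs, and 0.646 (0.138 to 6.06) in the late one, from 10 and 2 UMIs. The Cxcr4 values of this class were thus set by very few molecules.

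Cxcr4 was read in the CD45+ cells, where neutrophil-like cells led. Their levels were 621, 326 and 573 CPM in early, medium and late tumor samples (51, 250 and 27 cells), a mean of 507 ± 158 (SD, n = 3). NK cell-like cells, with 29 UMIs in 45 cells over all samples, stood at 449 and 347 CPM in the early and medium samples, within the neutrophil range. T cell-like cells stood at 315, 166 and 236 CPM, below both NK values, and macrophage or monocyte-like cells at 180, 164 and 290 CPM, overlapping with the T cells. Border or perivascular macrophage-like cells stood at 78.7, 108 and 129 CPM and dendritic cell-like cells at 60.8, 80.4 and 47.8 CPM, and these neighbours overlapped. With classes assigned cell by cell and without clusters, the means over tumor samples became 316 CPM in neutrophil-like and 194 CPM in border or perivascular macrophage-like cells. B cell-like cells held 129 CPM (104 UMIs) and plasmacytoid dendritic cell-like cells 172 CPM (18 UMIs) over all samples, with at least 20 cells in the medium sample only. Microglia-like cells, the resident macrophages of the brain, stood lowest of the leukocyte classes at 5.61, 26.3 and 17.3 CPM (46, 48 and 38 UMIs in 3982, 893 and 1037 cells).

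**Figure D3:**
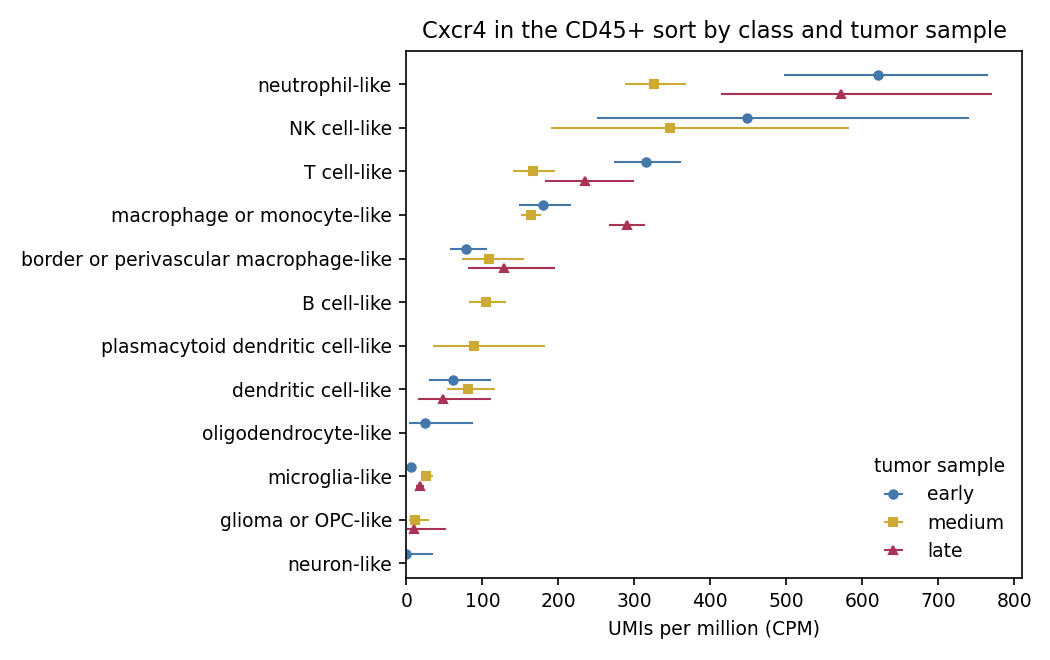
Cxcr4 by class of CD45+ cells, in CPM on a linear axis, for the early, medium and late tumor samples (sums of at least 20 cells). Bars across the points are 95% Poisson intervals. Neutrophil-like cells reach 326 to 621 CPM and microglia-like cells 5.61 to 26.3 CPM.

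All 6 leukocyte classes tested exceeded microglia-like cells in Cxcr4. The log2 difference was 5.29 ± 0.42 (SE, adjusted p = 3.04e-10, edgeR) for neutrophil-like cells, where 16% of 9695 genes were called higher than in microglia. It was 4.22 ± 0.59 (adjusted p = 1.04e-05, edgeR) for NK cell-like cells with 2 sums (5.04% of genes higher) and 4.17 ± 0.40 (adjusted p = 1.38e-08, edgeR) for T cell-like cells (20.1% higher). For macrophage or monocyte-like cells it was 4.00 ± 0.39 (adjusted p = 1.99e-07, edgeR), where 10.5% of genes were called higher, and the call was lost in run 1 alone (2.37, adjusted p = 0.0956, edgeR). The number of genes called in either direction in that contrast was 1396 (14.4%) with the tumor sample as a block and 662 without it, and Cxcr4 was called in both. Border or perivascular macrophage-like cells exceeded microglia by 2.86 ± 0.43 (adjusted p = 3.15e-05, edgeR, 7.18% of genes higher) and dendritic cell-like cells by 2.41 ± 0.49 (adjusted p = 0.00047, edgeR, 15.6% higher). The 6 contrasts share the microglia-like sums. Without TMM factors the split of higher and lower calls moved from 1547 and 1646 to 1212 and 2266 for neutrophil-like cells, from 489 and 984 to 842 and 483 for NK cell-like cells, from 1020 and 376 to 607 and 543 for macrophage or monocyte-like cells and from 1515 and 971 to 1242 and 1236 for dendritic cell-like cells, with Cxcr4 higher than in microglia in each.

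At least 1 Cxcr4 UMI was counted in 51.5% of 328 neutrophil-like cells (median 2322 UMIs), 27.7% of 812 T cell-like cells (median 1909) and 26.3% of 2496 macrophage or monocyte-like cells (median 2120). After thinning the shares were 30.9%, 16.8% and 16.1%. In microglia-like cells the share was 1.32% of 5912 cells (median 1906) and 0.659% after thinning. Oligodendrocyte-like cells, taken as a class that should lack the transcript, held it in 1.19% of 2529 CD45- cells (median 2459 UMIs, 0.604% after thinning) and in 2 of 55 CD45+ cells (median 1832 UMIs). The microglia share was thus not separated from this background (1.04% to 1.64% against 0.802% to 1.69% in the CD45- cells, at full depth). The microglia level of 10.8 CPM (9.03 to 12.8) was not above that of the neural classes of its own sort either, which was 25.96 CPM (5.35 to 75.9, 3 UMIs) in oligodendrocyte-like and 12.2 CPM (4.47 to 26.5, 6 UMIs) in glioma or OPC-like cells. In the CD45- sort, where Cxcr4 was scarcer, oligodendrocyte-like cells stood at 5.12 CPM (3.61 to 7.06).

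Of the 132 Cxcr4 UMIs of the microglia-like class, 27 lay in cells without a UMI of the macrophage or monocyte markers. The 11 macrophage or monocyte marker genes summed to 308, 929 and 723 CPM in microglia-like cells of early, medium and late samples, the order of their Cxcr4 values. In the 3685 microglia-like cells without any UMI of those genes, Cxcr4 stood at 3.11, 4.81 and 6.51 CPM (16, 4 and 7 UMIs). These cells were shallower, at a median of 1793 UMIs against 1906 over the class. The part of macrophage or monocyte RNA in the microglia level was not tested. Split by neutrophil markers instead, the cells without such a UMI held 87 of the 132 UMIs at 12.2 CPM. Among microglia-like clusters, 5 that together held most cells stood between 4.46 and 8.24 CPM. A Cst7-bearing cluster stood at 31.1 CPM (28 UMIs) and a cycling cluster led by genes such as Mki67 at 53.1 CPM (30 UMIs).

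Cxcr4 also varied within the other leukocyte classes, in clusters described after their values were seen. Among neutrophil-like cells, the cluster led by Stfa2l1 and Retnlg stood at 806 CPM (694 to 931), against 192, 365 and 198 CPM in the 3 others. Among macrophage or monocyte-like cells, a cluster led by Ear6, Adgre4 and Treml4 stood at 389 CPM (318 to 471) and one led by Ly6i and Ms4a4c at 310 CPM (265 to 360). The cluster led by Rnase2a, Arg1 and Gpnmb, most of whose cells were late, stood at 266 CPM (245 to 288), and the Cxcl9-led cluster, most of whose cells were medium, at 126 CPM (114 to 139). Among T cell-like cells, the Cd8a-led cluster stood at 345 CPM (303 to 391) and the others at 144 to 173 CPM. The B cell-like cluster led by Vpreb3 and by Igll1, a gene of the surrogate light chain of B cell precursors, stood at 275 CPM (217 to 343).

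By stage, the CD45+ sum of Cxcr4 was 2.63 times (2.38 to 2.91) as high in the medium and 2.88 times (2.57 to 3.22) as high in the late sample as in the early one. All 3 runs showed this, with 51.1, 130 and 129 CPM from early to late in run 1, 52.1, 136 and 151 in run 2, and 49.1, 124 and 141 in run 3. In microglia-like cells the medium to early ratio was larger than in the sum, at 4.69 (3.07 to 7.19). Their late to early ratio of 3.08 (1.95 to 4.84) was not separated from that of the sum, and was 2.51 to 3.95 by left-out library. The macrophage or monocyte marker sum of these cells was likewise lowest in the early and highest in the medium sample. In microglia-like cells without such a marker UMI the levels were 3.11, 4.81 and 6.51 CPM, with 4 and 7 UMIs behind the medium and late values. Whether the ratios came from macrophage or monocyte RNA or from the microglia was not tested. In macrophage or monocyte-like, T cell-like and neutrophil-like cells the ratios were smaller than in the sum or ran the other way. In macrophage or monocyte-like cells the medium to early ratio was 0.913 (0.745 to 1.13) and the late to early ratio 1.61 (1.32 to 1.99). The late to medium ratio was 1.77 (1.58 to 1.99), with 140 and 184 CPM in run 1, 174 and 286 in run 2, and 153 and 316 in run 3. In T cell-like cells the medium to early ratio was 0.528 (0.425 to 0.656). Their late to early ratio of 0.748 (0.558 to 0.993) rested on single libraries, since leaving out the late library of run 3 gave 1.02 and leaving out that of run 2 gave 0.517. For neutrophil-like cells the medium to early ratio was 0.524 and the late to early ratio 0.922. The make-up of the sort differed between stages, and macrophage or monocyte-like cells were 5.05%, 39.7% and 31.1% of CD45+ cells and microglia-like cells 78.2%, 22.4% and 49.1% from early to late.

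Macrophage or monocyte-like cells held 20.8%, 45.8% and 74.2% of the Cxcr4 UMIs of early, medium and late CD45+ cells. From medium to late this share went up while their share of cells went down. T cell-like cells held 36.8%, 11.7% and 8.47%, and neutrophil-like cells 16.0%, 20.4% and 5.52%. Over all samples, microglia-like cells were 52.9% of CD45+ cells and held 5.06% of the 2610 Cxcr4 UMIs.

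**Figure D4:**
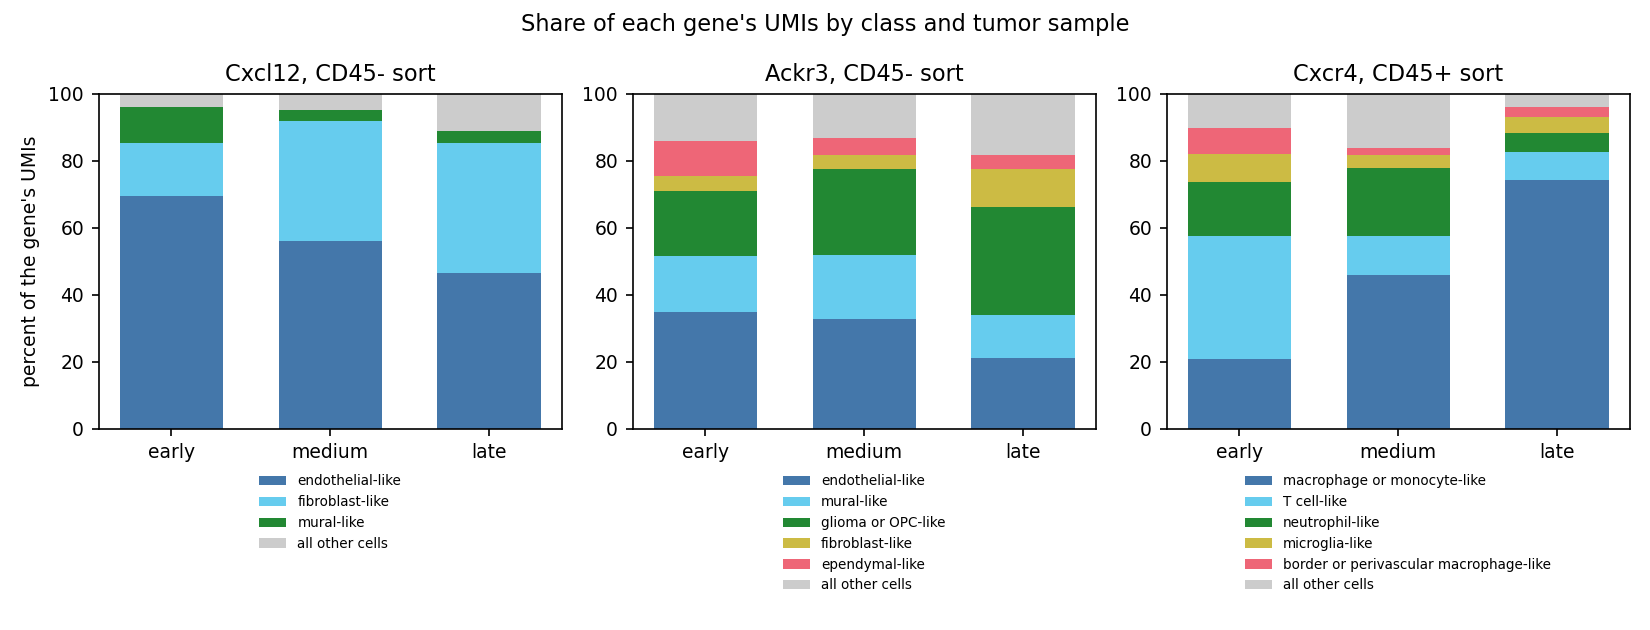
Share in percent of the UMIs of Cxcl12 and Ackr3 in CD45- cells and of Cxcr4 in CD45+ cells by class, stacked for the early, medium and late tumor samples. Endothelial-like cells hold 69.4%, 56.1% and 46.6% of Cxcl12, and macrophage or monocyte-like cells 20.8%, 45.8% and 74.2% of Cxcr4.

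In the CD45- sort, Cxcr4 was scarce (206 UMIs) but not evenly spread. Ependymal-like cells stood at 88.4 CPM (36 UMIs), with a UMI in 20.3% of 123 cells and in 4.96% after thinning. Choroid plexus-like cells, also epithelium of the ventricles, held 0 UMIs in 380 cells at a median of 4814 UMIs. Endothelial-like cells stood at 12.9 and 23.4 CPM in the early and medium samples (3 and 5 UMIs) and at 150 CPM in the late one (20 UMIs in 9 of 68 cells). The late to early ratio was 11.7 (3.46 to 61.3), and 7.60 without an early library of run 3, and the late to medium ratio was 6.44 (2.35 to 21.96). The early UMIs lay in 1 library and the medium UMIs in 1 library, both of run 2, and leaving out either gives no ratio against that stage. Late cells with Cxcr4 were found in all 4 late libraries, at 96.9, 156 and 384 CPM in runs 1, 2 and 3. Ptprc was counted in 1 of these 9 cells, against 3 of all 346 endothelial-like cells. It was counted in only 26.4% of late CD45+ cells, so that its absence cannot exclude leukocyte RNA, which was not tested. The 9 cells were deeper, at a median of 2216 UMIs against 1585 over all late endothelial-like cells.

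Some late endothelial-like cells with Cxcr4 also carried Apln, which encodes the ligand apelin and is a mark of sprouting endothelium. Apln had no UMI in the early and medium endothelial-like cells, which allows up to 12.9 and 14.01 CPM, and stood at 263 CPM in the late ones (35 UMIs in 5 cells). Of these UMIs, 32 were in run 1, 0 in run 2 and 3 in run 3. In all, 20 were in 1 cell of the small Gpihbp1-led cluster. The 5 cells, picked out after their values were seen, were deeper than the other late ones (median 2962 against 1502 UMIs a cell). Of them, 4 carried Cxcr4 (11 UMIs, 451 CPM) and none carried Cxcl12, where 0 of 24399 UMIs allows up to 123 CPM. In the other 63 late endothelial-like cells, Cxcr4 stood at 82.9 CPM (9 UMIs) and Cxcl12 at 2496 CPM, against 2038 CPM over all late endothelial-like cells. The tip cell list summed to 2193, 2546 and 3385 CPM in early, medium and late endothelium, the venous list to 525, 673 and 1316 CPM, the capillary list to 5864, 7138 and 7273 CPM and the arterial list to 215, 336 and 459 CPM. Among the other tip cell genes, Angpt2 (43.0, 117 and 293 CPM) and Cd34 (546, 874 and 1076 CPM) went up from early to late. Esm1 (98.9, 60.7 and 158 CPM), Plvap (163, 280 and 158 CPM) and Kdr (1341, 1215 and 1437 CPM) did not go up at each step, and Pgf had 0 UMIs.

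**Figure D5:**
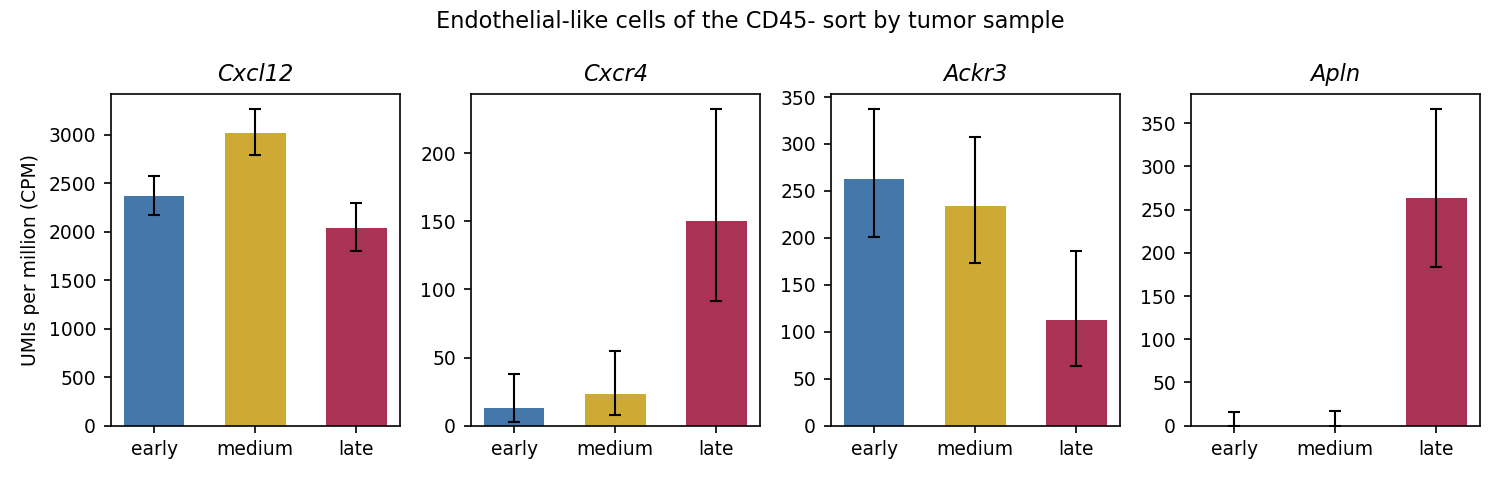
Cxcl12, Cxcr4, Ackr3 and Apln in endothelial-like CD45- cells in CPM by tumor sample, with 95% Poisson intervals. Cxcr4 stands at 12.9, 23.4 and 150 CPM and Apln at 0, 0 and 263 CPM from early to late, while Cxcl12 stands between 2038 and 3018 CPM.

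The genes most alike to each member were sought over 40 class-by-sample sums of at least 50 cells among 11346 genes, as a description. Cxcl12 was followed most closely by Cdh5 (vascular endothelial cadherin, r = 0.974), Abcb1a (an efflux pump of the blood-brain barrier, 0.958), Arhgap29 (0.952), Itm2a (0.951) and Cavin1 (0.946). Cdh5 and Itm2a were among the markers that named the endothelial-like class. Cxcr4 was followed by Itgal (a leukocyte integrin chain, r = 0.863), Ctse (0.849), AB124611 (0.831), Thap2 (0.819) and Il2rg (the common cytokine receptor chain, 0.819). Ackr3 was followed by Tnfrsf19 (r = 0.906), Ptprg (0.876), Myo10 (0.873), Ntn4 (0.871) and Sparcl1 (0.871). The sums share libraries and class labels, so that these values follow the classes.

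The other ligands and partners of the receptors were compared between the sorts in the same edgeR fit as the members. Over all genes tested, 20.4% were higher and 25.7% lower in CD45+ cells, and the count of each list is read against these shares. Of 5 genes, 1 was lower in CD45+ cells and 4 were not called, with a median log2 difference of -0.22 against -0.04 over all genes tested. The lower one was Adm (-1.58, adjusted p = 0.0131, edgeR), the adrenomedullin gene, whose peptide ACKR3 can bind, at 98.1 CPM in fibroblast-like and 34.5 CPM in endothelial-like cells. Mif, which can bind CXCR4, Hmgb1, which pairs with CXCL12, and Cxcl14 stood at -0.11, -0.22 and -0.48. Cxcl11, the other chemokine of ACKR3, stood at 2.12 (adjusted p = 0.0554, edgeR). Of 8 genes for co-receptors and ligand processing, 6 were tested, of which 5 were higher and 1 was lower in CD45+ cells (median 1.83). Those higher included Cd74, a receptor chain for MIF (5.58), Dpp4, the protease that trims CXCL12 (2.39), and Mmp9 (6.21). Gpc3, a glypican that carries heparan sulphate, was lower (-4.50) and stood at 436 CPM in fibroblast-like cells. Dpp4 nevertheless stood at 43.1 CPM in endothelial-like and 23.1 CPM in T cell-like cells.

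Downstream of CXCR4, the leukocyte chemotaxis list held 9 genes. Of these, 8 were higher in CD45+ cells and 1 was not called (median 3.96). A list chosen for leukocytes leans to CD45+ cells by its make-up, so that this count does not measure CXCR4 signalling. Rac2, the GTPase of haematopoietic cells, stood at 5.47, Vav1 at 5.07, Pik3cg at 4.62 and Dock2 at 4.60, and Jak2 was the one not called (0.38). Of 11 receptor kinases, arrestins, a ubiquitin ligase and RGS proteins, which end or redirect receptor signals, 7 were higher, 0 were lower and 4 were not called (median 1.19). Arrb2 (3.12) encodes an arrestin, Grk2 (2.37) a receptor kinase, and Rgs1 (6.14) and Rgs18 (9.07) are regulators of G proteins in leukocytes. Of 8 G protein subunits, 3 were higher, 2 were lower and 3 were not called (median 0.18), with Gnai2 at 1.49 and the neural subunits Gnai1 and Gnao1 at -5.14 and -4.12. Of 5 transcription factors named as regulators of the axis, 2 were higher, 1 was lower and 2 were not called (median 0.52). The lower factor was Foxc1 (-3.46, adjusted p = 0.000164, edgeR), a factor of the Cxcl12-rich stromal cells of the bone marrow, and the higher ones were Hif1a (0.66) and Nrf1 (0.62).

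By class, Foxc1 shared the 3 main Cxcl12 classes, at 578 CPM in fibroblast-like, 307 CPM in endothelial-like and 307 CPM in mural-like cells, and at 3.80 CPM in glioma or OPC-like cells. Endothelial-like cells exceeded glioma or OPC-like cells in Foxc1 by 6.44 (adjusted p = 1.41e-07, edgeR), and the difference from fibroblast-like cells was -1.04 (adjusted p = 0.220, edgeR). The 4 endothelial lists stood lower in CD45+ cells on the median. Of the arterial list, 6 of 8 genes were tested, with 3 lower and 3 not called (median -1.97), and of the capillary list 6 of 7 were lower and 1 was not called (median -2.45). Of the 7 venous genes 4 were lower and 3 higher (median -1.68), and the higher ones, Lcn2 (9.69), Icam1 (3.62) and Vcam1 (1.30), are also made by myeloid cells. Of the 7 tip cell genes 5 were lower, Cd34 was higher (2.01) and 1 was not called (median -2.40).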

How the data were processed

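inDrop single-cell RNA libraries of CD45- and CD45+ cells from early, medium and late gliomas were analysed. The authors used bcbio-nextgen and RapMap to map reads to mouse transcripts (GRCm38, Ensembl 94) and the transgenes, and deposited raw UMI counts per gene and cell. The submitters' processing notes name build mm10. Whether ambient RNA and doublets were removed before deposit is not given in the sources used here. The deposited library annotation (other values, namely text) gave sort, stage and run, and 0 columns of per-sample values were left unused.

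Cells with at least 500 UMIs, at least 500 genes and at most 20% mitochondrial UMIs were kept, which removed 2141 cells under the gene minimum and 2278 over the mitochondrial limit. A rebuilt Scrublet procedure marked 113 of 17786 cells (0.635%) as doublets, which were removed unless in libraries of under 100 cells. Cells were clustered with scanpy 1.11.5 and leidenalg 0.10.2 (2000 variable genes without the members and listed genes, 40 components, 20 neighbours, resolution 1). A cluster was named from at least 3 markers at 2-fold or more in at least 10% of cells. These names are rebuilt and can differ from the study's. Levels are UMIs per 1000000 UMIs of a sum (CPM), with exact 95% Poisson intervals and, for a count of 0, a limit of 3 counts, and cells were thinned to 1000 UMIs for shares. Two-sided edgeR 4.0.16 quasi-likelihood tests (robust, TMM factors, R 4.3.3) used sums per tumor sample and sort, or per class with at least 20 cells in at least 2 samples, with Benjamini-Hochberg adjustment over all genes passing edgeR's count filter and a threshold of 0.05. DESeq2 1.42.0 was an alternative. The tumor sample was a block because both sorts and all classes of a stage came from the same tumor sample, and deviations of same-numbered samples correlated at 0.385, 0.273 and 0.310 over 11346 genes. Libraries that share a tumor number were read as technical. With the block, p-values measure how the sort or class differences varied among 3 tumor samples of different stages, not the spread between the samples themselves. In the class fits this variation was pooled over all classes fitted together.

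The text names the 3 members whatever their values, listed pathway genes by role and the 5 genes most alike to each member (log2 of CPM + 10, at least 500 UMIs in all). Part of the genotype is not reported here. Members and lists were chosen with earlier results of these data known. Ependymal-like and B cell-like cells were not tested, with 1 sum of at least 20 cells each.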

Additional observations from a re-analysis of the deposited data

How the results depend on the processing

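Leaving out the tumor sample as replicate block changed no call of a member, with sort differences of -3.54 (Cxcl12), 4.12 (Cxcr4) and -2.95 (Ackr3) on the log2 scale. The direction of the sort differences held under every alternative run, and the sort called 7868 genes without the block and 3373 in run 1 alone against 8503. In run 2 alone the calls were lost for Ackr3 between sorts (-2.35, adjusted p = 0.0945, edgeR) and for endothelium against astrocyte-like (1.11, 0.460), fibroblast-like (2.94, 0.0666) and glioma or OPC-like cells (2.11, 0.101), and for Cxcl12 against fibroblast-like (1.35, 0.112) and mural-like cells (1.85, 0.0591). Cxcl12 against fibroblast-like cells was 1.43 with DESeq2 and 1.39 at resolution 2, and 1.02 to 1.63 with each tumor sample left out, and Ackr3 against astrocyte-like cells 1.62 to 3.09. Ackr3 against mural-like cells, not called, was 0.33 in run 2 and 0.049 without the top doublet scores, an alternative chosen after seeing the data that left out 776 cells. The contrast of NK cell-like cells could not be formed with doublets kept, at resolution 2, with the members kept in clustering or in single runs. Cxcr4 of macrophage or monocyte-like cells was 2.37 in run 1 alone (adjusted p = 0.0956, edgeR). The cause of these losses was not tested, and single runs hold fewer cells. Of 160 counts of calls between classes, 31 fell outside 1.5 times the main count, 16 of them in single runs, the lowest being 47 against 1396.

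Between stages, the medium to early ratio of Cxcl12 in CD45- cells was 2.01 as a mean over cells, 5.40, 1.43 and 1.45 in runs 1, 2 and 3, and 1.55 to 2.37 with each library left out. Its late to early ratio was 0.650 over cells, 2.49, 0.183 and 0.471 by run, 0.447 without the top doublet scores and 0.392 to 0.744 by left-out library, and late to medium 0.462 and 0.128 in runs 1 and 2, 0.247 without the top doublet scores and 0.219 to 0.367. Cxcr4 of CD45+ cells stood at 2.56 over cells and 2.52 in run 1 late to early, and 0.991 in run 1 late to medium. Ackr3 of CD45- cells stood at 1.69, 1.49 and 0.587 by run medium to early, 0.431 in run 1 late to early, and 0.165 and 0.425 in runs 2 and 3 late to medium. Endothelial Cxcl12 late to early was 1.09 over cells and 1.06 without the top doublet scores. T cell-like Cxcr4 late to early was 1.13 in run 2 and 0.517 to 1.02 by left-out library, and late to medium 0.979 to 1.93. With classes assigned without clusters, fibroblast-like Cxcl12 averaged 397 CPM, neutrophil-like Cxcr4 316 CPM and border or perivascular macrophage-like Cxcr4 194 CPM, and thinned cells gave 725 CPM for neutrophil-like Cxcr4. Levels under about 1 UMI per library sum cannot be resolved at this depth.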

Other observations

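Cells with human EGFR fell partly into clusters that no marker list named, and their members differed by cluster. An Itga8-led cluster of 544 CD45- cells, 529 of them late and 89.0% with human EGFR, held Cxcl12 at 6.68 CPM, Cxcr4 at 7.92 CPM and no Ackr3 UMI, which allows up to 0.742 CPM. A cluster of 124 CD45- cells, all from the medium tumor sample and 87.1% with human EGFR, held Cxcl12 at 52.9 CPM (44 UMIs in 11 cells). A cluster led by Elane, Ctsg, Mpo and Prtn3, genes of neutrophil precursor granules, with mast cell genes such as Cpa3 and Mcpt4 beside them, stayed unnamed and held Cxcr4 at 151 CPM in 87 CD45+ cells, 77 of them medium.

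Ependymal-like cells held both receptors, with Cxcr4 at 84.5, 110 and 78.6 CPM and Ackr3 at 63.4, 110 and 58.9 CPM in early, medium and late samples, from 92, 19 and 12 cells. With 1 sum of at least 20 cells, no test was run.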
